A study of Rattus norvegicus with 12 samples.

Results

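Messenger RNA levels of 79 genes for the protein components of the cytosolic ribosome were followed in rat cardiac progenitor cells that had attached to a dish or were held in suspension. The 79 genes are the rows, of 16924 in each count table, whose Entrez identifier maps to a protein-coding rat symbol that starts with Rpl or Rps and a digit, or to Rplp0, Rplp1, Rplp2 or Rpsa. Of 99 symbols with this form, 9 kinases of the Rps6k family, 5 symbols that carry -ps, 2 other non-coding genes and 4 genes with fewer than 10 counts over the 12 libraries were left out. Just inside that limit were Rpl35a with 13 counts and Rps12l4 with 48, and just outside it were Rpl3l with 9 counts, Rpl39l1 with 3, and Rpl27l2 and Rps4y2 with 0. The symbol rule also takes in Rps19bp1, which encodes a protein that binds Rps19 and is not a part of the ribosome. The annotation symbols of 2 rows with many counts, Rps4x-ps9 and Rps27a-ps1, keep them outside the set, and Rps4x, Rps27a, Rps9 and Rpl37 had no row under their own symbols.

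The study compared cells on fibronectin, cells on laminin, cells on dishes without coating and cells in suspension, with 3 RNA sequencing libraries in each group. Fibronectin and laminin are proteins of the extracellular matrix that cells bind through integrins. All groups come from a single clone of rat cardiac progenitor cells, were grown in medium with serum, leukemia inhibitory factor, basic fibroblast growth factor, erythropoietin and glutathione, and carry the same treatment text: sparse seeding and 2 h in 0.1% fetal bovine serum. The labels do not say how suspended cells were handled over that time. Each library has a labelled batch that equals its replicate number, and the submitters call the libraries biological triplicates. In the fit without a batch term, p-values therefore measure the spread between batches of 1 line and not between animals. In fits with batch as a term, they measure the spread left within batches.

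Ribosomal proteins are made in near-equal numbers, assembled with ribosomal RNA into a small subunit that reads the messenger RNA and a large subunit that joins amino acids. Their transcripts are known for a start with a C followed by a run of pyrimidines, the terminal oligopyrimidine or TOP element, through which growth signals carried by the kinase complex mTORC1 control their translation. Attachment to matrix and serum are among the cues that feed this pathway in cultured cells.

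The annotated transcription starts of the members were examined first, because the TOP element is the feature these genes are known to share. Sequences were taken from RefSeq for the assembly GRCr8, which differs from the build used for counting, and 63 of the 79 members had an entry. The search asked for a C followed by at least 4 pyrimidines (C or T) on the gene's own strand. The annotated first base was such a C in 23 of the 63 members (36.51%), against 463 of 19005 protein-coding genes in the same table (2.436%). Counted from a C at most 10 bases to either side of the annotated start, the pattern was found in 44 members (69.84%), against 28.18% of all genes. The run is taken from that C on, so pyrimidines further upstream can stand before it. The windows below hold 20 bases before the annotated start and the 20 bases from it, 5′ to 3′, with the run in capitals. They show members with the C at the annotated start itself (Rplp1, Rpl10, Rps7) and members whose run begins a few bases before it and reads across it (Rplp0, Rpl19, Rps3a). Rps6 is shown as a case at the edge of the searched span, with its capitals ending before the start, and Rpsa as one with no match in the span, although a run of pyrimidines lies further upstream in its window.
Rplp1 (chr8:71290853-71290892, minus strand): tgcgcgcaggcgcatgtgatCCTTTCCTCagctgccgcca
Rpl10 (chrX:157205830-157205869, plus strand): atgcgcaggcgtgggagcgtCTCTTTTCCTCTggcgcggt
Rps7 (chr6:50999426-50999465, minus strand): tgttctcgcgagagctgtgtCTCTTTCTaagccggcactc
Rplp0 (chr12:46718371-46718410, minus strand): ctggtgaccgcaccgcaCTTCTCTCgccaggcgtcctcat
Rpl19 (chr10:83519044-83519083, plus strand): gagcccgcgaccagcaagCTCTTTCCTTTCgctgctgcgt
Rps3a (chr2:173827023-173827062, minus strand): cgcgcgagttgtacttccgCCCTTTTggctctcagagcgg
Rps6 (chr5:106420521-106420560, minus strand): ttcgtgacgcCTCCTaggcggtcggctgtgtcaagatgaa
Rpsa (chr8:128728859-128728898, plus strand): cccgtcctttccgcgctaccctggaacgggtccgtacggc
A match describes letters near an annotated start, which may itself be off by some bases, and the absence of one says only that the pattern does not begin within 10 bases of that start. Another shared feature is the hosting of small nucleolar RNA genes, which guide the modification of ribosomal RNA: 29 of the 79 members had at least 1 annotated inside their span, against 322 of 16238 protein-coding genes in the tables (1.98%).

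Library totals ran from 15875160 to 20852160 counts, and ribosomal RNA genes took between 0.448% and 4.24% of them, with the highest shares in fibronectin 1 (4.24%) and no coating 1 (3.06%). Of 6 mesenchymal markers, Vim (mean 5125 CPM, counts scaled to a common library total), S100a4 (2173 CPM), Col1a1 (1164 CPM), Col1a2 (429 CPM) and Pdgfra (330.1 CPM) were well covered, while Thy1 had 18 counts over the 12 libraries. The cardiac transcription factor Gata4 was at 88.4 CPM, Nkx2-5 and Isl1 had 0 counts and Tbx5 had 1. Kit, a receptor used to isolate cardiac progenitors, was at 3.09 CPM, the transporter gene Abcb1b was at 17.4 CPM and Abcg2 had 0 counts. Among heart muscle markers Myh7 had 0 counts, Myh6 had 1 and Actn2 had 8. Tnnt2, also a heart muscle marker, averaged 4.66, 5.37 and 5.43 CPM on fibronectin, laminin and no coating, against 1.82 CPM in suspension. Among blood cell markers Hbb had 0 counts and Ptprc had 3, Cd68 was at 0.960 CPM and Laptm5 at 2.67 CPM. Cd14, the most abundant of them, averaged 54.97, 57.06 and 49.98 CPM on fibronectin, laminin and no coating, against 34.7 CPM in suspension. Among endothelial markers Flt1 was at 134.7 CPM, and Pecam1, Cdh5 and Tek had 59, 10 and 90 counts. Smooth muscle markers ranged from 30 counts for Cnn1 to 8.17 CPM for Myh11, with Des at 4.62 CPM. Mef2c, Ttn, Kdr, Acta2 and Ly6a are on the marker lists and were not analysed here. The part of other cell types in the results was not tested.

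Together the 79 genes took a larger share of the counts in each attached library than in any suspension library. The share was 3.05%, 3.10% and 3.51% in fibronectin libraries 1, 2 and 3, it was 3.27%, 3.36% and 3.58% in laminin libraries, and it was 3.03%, 3.21% and 3.69% in libraries without coating, against 2.75%, 2.59% and 2.69% in suspension libraries. The means were 3.22% ± 0.248, 3.41% ± 0.158 and 3.31% ± 0.343 on fibronectin, laminin and no coating, against 2.68% ± 0.0814 in suspension (SD, n = 3 each). In all 3 attached groups replicate 3 was the highest library, whereas in suspension replicate 3 lay between the other two. With ribosomal RNA genes left out of the library totals the attached libraries held 31230 to 37885 CPM in these genes, against 26484 to 27696 CPM in suspension libraries. No p is given for this sum, because the genes were chosen with earlier results of these data known. A share of counts shows relative levels only: a rise of these transcripts and a fall of the rest of the RNA cannot be told apart, nor can fewer cells with the transcripts and less of them per cell.

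**Figure D1:**
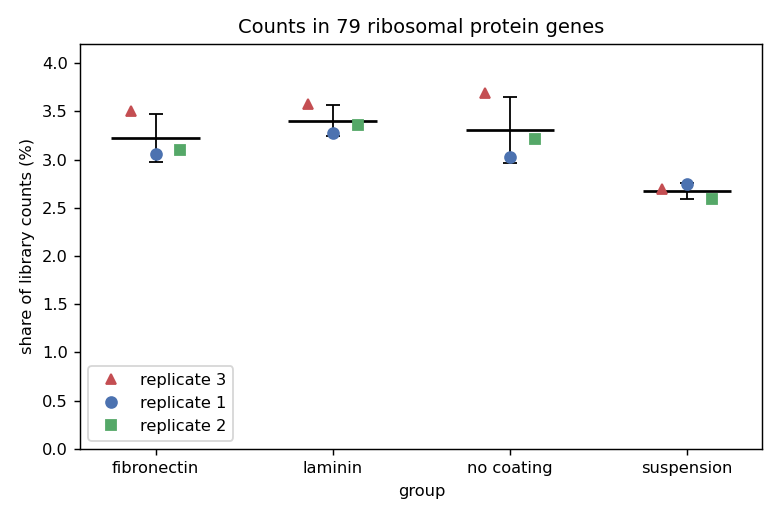
Share of each library's counts that falls in the 79 ribosomal protein genes, in percent, by group. Symbols are single libraries with replicate 3 as a triangle, and the line and bar are the mean and SD of 3 libraries. The 9 attached libraries lie between 3.03% and 3.69%, above the 3 suspension libraries at 2.59% to 2.75%.

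Gene by gene, most ribosomal protein transcripts were somewhat higher after attachment to any of the surfaces, and no tested member was called lower. Of the 79 members, 77 passed the filter on low counts, and Rpl35a and Rps12l4 did not. A gene is called where the Benjamini-Hochberg adjusted p of edgeR's quasi-likelihood test, over 10020 genes, is below 0.05. On fibronectin 31 of 77 members rose relative to suspension, while 6.61% of all tested genes were called higher. On laminin 67 members rose, beside 12.1% of all genes, and without coating 56 members rose, beside 8.48%. No member was called lower on any surface (0 of 77, and 0 at an unadjusted p below 0.05). Of all genes 3.06%, 6.96% and 4.1% were called lower by adjusted p on fibronectin, laminin and no coating. The 3 comparisons share the suspension libraries and so are not independent.

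The changes were small and much alike from member to member. The median log2 fold change over the 77 members was 0.30 on fibronectin, 0.34 on laminin and 0.33 without coating, which correspond to rises of 23.3%, 26.6% and 25.9%, and the median of all tested genes was 0.00, -0.01 and 0.00. The whole range on fibronectin ran from -0.24 to 0.55, with 75 members above 0. All 3 attached libraries lay above all 3 suspension libraries in CPM for 67 members on fibronectin, a pattern shown by 16.4% of all tested genes. The same held for 73 members on laminin, beside 22% of all genes, and for 71 members without coating, beside 17.6%. In all 3 batches taken singly the attached library was above its own suspension library for 73, 74 and 74 members on fibronectin, laminin and no coating, beside 32.2%, 31.8% and 31.3% of all genes. It was below in all 3 batches for 0 members on each surface, beside 30.5%, 30.7% and 29.1%.

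**Figure D2:**
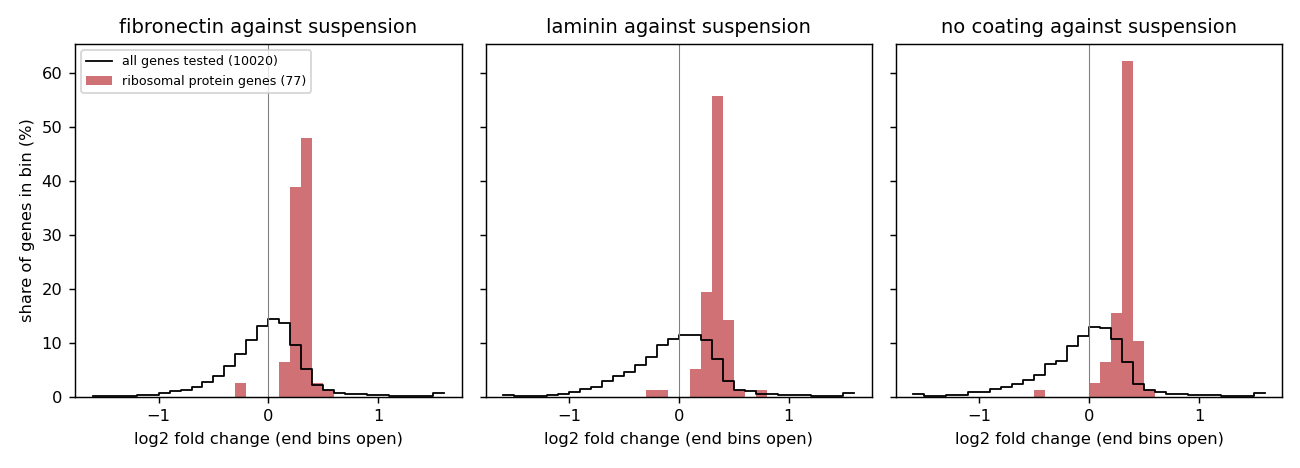
Distribution of log2 fold changes against suspension for the 77 tested ribosomal protein genes (bars) and all 10020 tested genes (line), as the percentage of genes in bins of 0.1, for fibronectin, laminin and no coating. The bars gather around the member medians of 0.30, 0.34 and 0.33, where the line is centred near 0.

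Rps6, the small-subunit protein that S6 kinases phosphorylate, had the smallest p of all members on each surface. It was measured at 1073, 1129 and 1246 CPM in fibronectin libraries 1, 2 and 3, at 1210, 1236 and 1184 CPM in laminin libraries, and at 1120, 1174 and 1217 CPM in libraries without coating, against 950.2, 926.2 and 982.4 CPM in suspension libraries. None of the 9 attached values overlapped the suspension values. The log2 fold change was 0.31 ± 0.06 (SE, n = 3 each) on fibronectin, with an edgeR adjusted p of 0.0105, 0.35 ± 0.06 on laminin, with 0.00377, and 0.31 ± 0.06 without coating, with 0.00807. On fibronectin it was the only member called in all 12 fits that each left out 1 library.

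The P-stalk proteins Rplp0, Rplp1 and Rplp2 form the flexible arm of the large subunit that recruits translation factors. Rplp1 was at 1048, 1112 and 1201 CPM in fibronectin libraries 1, 2 and 3, at 1170, 1175 and 1226 CPM in laminin libraries, and at 1121, 1118 and 1320 CPM in libraries without coating, against 1024, 856.5 and 855.1 CPM in suspension libraries. Suspension 1 stood well above the other two suspension libraries, close to fibronectin 1, and the groups still did not overlap. Its log2 fold change was 0.33 ± 0.08 on fibronectin, 0.39 ± 0.08 on laminin and 0.40 ± 0.08 without coating, with edgeR adjusted p of 0.0226, 0.0078 and 0.00876. Rplp0, the core of the stalk, averaged 2987 ± 277 CPM on fibronectin, 3180 ± 343 CPM on laminin and 3060 ± 527 CPM without coating, against 2352 ± 36.5 CPM in suspension (SD, n = 3 each), and rose on all 3 surfaces with log2 fold changes of 0.38 ± 0.10, 0.44 ± 0.10 and 0.39 ± 0.10. Rplp2 rose on laminin (0.41 ± 0.10, edgeR adjusted p 0.0204), and was at 0.32 ± 0.10 on fibronectin and 0.33 ± 0.10 without coating with adjusted p of 0.0723 and 0.0567. With the labelled batch added to the model as a block, Rplp2 was called on all 3 surfaces.

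Both subunits took part. Of the 28 small-subunit members tested, 13 rose on fibronectin, 26 on laminin and 25 without coating, with median log2 fold changes of 0.31, 0.36 and 0.36. Of the 41 large-subunit members outside the stalk, 15, 36 and 27 rose on the same surfaces, with medians of 0.29, 0.33 and 0.32. Beside these counts, 6.61%, 12.1% and 8.48% of all tested genes were called higher. No test of a difference between the subunits was made.

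The change of greatest size belonged to Rps2, a small-subunit protein near the site where messenger RNA enters the ribosome. It was at 138.9, 146.2 and 154.2 CPM in fibronectin libraries 1, 2 and 3, at 162.4, 167.2 and 192.5 CPM in laminin libraries, and at 136.6, 132.5 and 186.5 CPM in libraries without coating, against 86.99, 92.59 and 127.5 CPM in suspension libraries. The highest suspension library, replicate 3, came within a few CPM of the lowest attached one. The log2 fold change was 0.55 ± 0.15 on fibronectin, 0.77 ± 0.15 on laminin and 0.58 ± 0.15 without coating, with edgeR adjusted p of 0.0423, 0.00725 and 0.0292. By batch, the difference on fibronectin was 0.77, 0.65 and 0.29 in batches 1, 2 and 3.

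Among the large-subunit members, Rpl19, which lies where the subunits meet, had one of the more stable rises. It was at 469.8, 438.0 and 536.6 CPM in fibronectin libraries 1, 2 and 3, at 516.7, 496.8 and 566.4 CPM in laminin libraries, and at 469.4, 475.9 and 578.5 CPM in libraries without coating, against 396.3, 358.8 and 382.4 CPM in suspension libraries. All attached values were above all suspension values. The log2 fold change was 0.38 ± 0.09 on fibronectin, 0.48 ± 0.09 on laminin and 0.44 ± 0.09 without coating, with edgeR adjusted p of 0.022, 0.00527 and 0.00988. Other large-subunit members with the smallest p were Rpl7, Rpl26 and Rpl23 on fibronectin, at 0.31 ± 0.06, 0.31 ± 0.07 and 0.27 ± 0.06, and Rpl23 and Rpl34 without coating, at 0.31 ± 0.06 and 0.40 ± 0.08. Rps20, a small-subunit protein, was among the 4 smallest p on laminin, where it changed by 0.54 ± 0.10.

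Rpl4, a large-subunit protein whose gene was among those with the most counts, averaged 1739 ± 86.6 CPM on fibronectin, 1802 ± 54.7 CPM on laminin and 1722 ± 31.3 CPM without coating, against 1595 ± 27.2 CPM in suspension (SD, n = 3 each), and was called on laminin only (0.18 ± 0.05, edgeR adjusted p 0.0438). Rpl3, Rpl10 and Rpl39 were called on each surface with values between 0.30 and 0.40. Rps19, mutated in Diamond-Blackfan anemia in humans, and Rpl41, the shortest of the proteins, rose on laminin (0.35 ± 0.10 and 0.39 ± 0.09) and without coating (0.42 ± 0.10 and 0.38 ± 0.09). With the batch as a block, Rpl4 was called on 2 surfaces, and Rps19 and Rpl41 on all 3.

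Some members also have a role outside the ribosome. Rpsa, also known as a laminin receptor, averaged 1444 ± 129 CPM on fibronectin, 1550 ± 150 CPM on laminin and 1462 ± 229 CPM without coating, against 1147 ± 22.7 CPM in suspension (SD, n = 3 each). It rose on each surface, by log2 fold changes of 0.37 ± 0.10, 0.43 ± 0.10 and 0.36 ± 0.10, with edgeR adjusted p of 0.0374, 0.0128 and 0.0326. Rpl5 and Rpl11 bind and inhibit Mdm2, the ubiquitin ligase of p53, when ribosome assembly is disturbed. Rpl11 was at 0.31 ± 0.09 on fibronectin (edgeR adjusted p 0.0536) and rose on laminin (0.35 ± 0.09, 0.0213) and without coating (0.36 ± 0.09, 0.0246). Rpl5 rose on laminin (0.24 ± 0.07, adjusted p 0.0351) and was at 0.23 ± 0.07 on fibronectin and 0.19 ± 0.07 without coating, with adjusted p of 0.0552 and 0.0864. With the batch as a block, Rpl11 and Rpl5 were called on all 3 surfaces.

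The 4 tested symbols that name paralogs (Rps27l, Rpl22l1, Rpl36al1 and Rpl37l1) had median log2 fold changes of 0.23, 0.22 and 0.19 on fibronectin, laminin and no coating. Of these 4, 1, 2 and 2 rose, beside 6.61%, 12.1% and 8.48% of all tested genes. Rps27l, a paralog of Rps27 that p53 induces, had log2 fold changes of 0.24 ± 0.07, 0.24 ± 0.07 and 0.24 ± 0.07 on fibronectin, laminin and no coating, of which the last pair were called (edgeR adjusted p 0.0419 and 0.0489). Rps27 itself was at 0.32 ± 0.10, 0.35 ± 0.10 and 0.39 ± 0.10 and was called on the same 2 surfaces. Rpl22l1 was not called on any surface, with 0.21 ± 0.13, 0.21 ± 0.13 and 0.13 ± 0.13, while its counterpart Rpl22 rose on laminin (0.31 ± 0.08) and without coating (0.33 ± 0.08) and was at 0.27 ± 0.08 on fibronectin with an adjusted p of 0.0639. Rpl37l1, which the annotation also lists as Rpl37, rose on all 3 surfaces (0.27 ± 0.08, 0.33 ± 0.08 and 0.34 ± 0.08). With the batch as a block, Rps27l, Rps27 and Rpl22 were called on all 3 surfaces, and Rpl22l1 stayed uncalled. Whether a paralog and its counterpart differ was not tested. Paralogs and processed copies share sequence with their parent genes, and the counting of reads that match more than 1 copy is not given in the sources used here.

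Rps3a, Rpl7a, Rpl30, Rpl31, Rpl36al1, Rpl22l1, Rpl29 and Rps19bp1 were called on none of the surfaces, and 30 members were called on all 3. With the batch as a block 65 members were called on all 3 surfaces, Rpl29 and Rpl31 on 2 and Rpl30 on 1, and the other members just named stayed uncalled. No share of all tested genes called on all 3 surfaces is given beside the counts of 30 and 65. They therefore cannot be read against a background. Rpl7a had only 237 counts over the 12 libraries, between 0.693 and 1.93 CPM, and its log2 fold changes of -0.22 ± 0.33, -0.23 ± 0.33 and -0.40 ± 0.34 on fibronectin, laminin and no coating were not called, with a counting error that is large at this depth. Rps19bp1, at 5.86 to 8.85 CPM, had values of -0.24 ± 0.13, -0.16 ± 0.13 and 0.09 ± 0.13. The 29 snoRNA hosts and the 48 other tested members had nearly the same median log2 fold change, 0.30 and 0.30 on fibronectin, 0.34 and 0.34 on laminin, and 0.33 and 0.34 without coating. This split was chosen after values were seen.

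**Figure D3:**
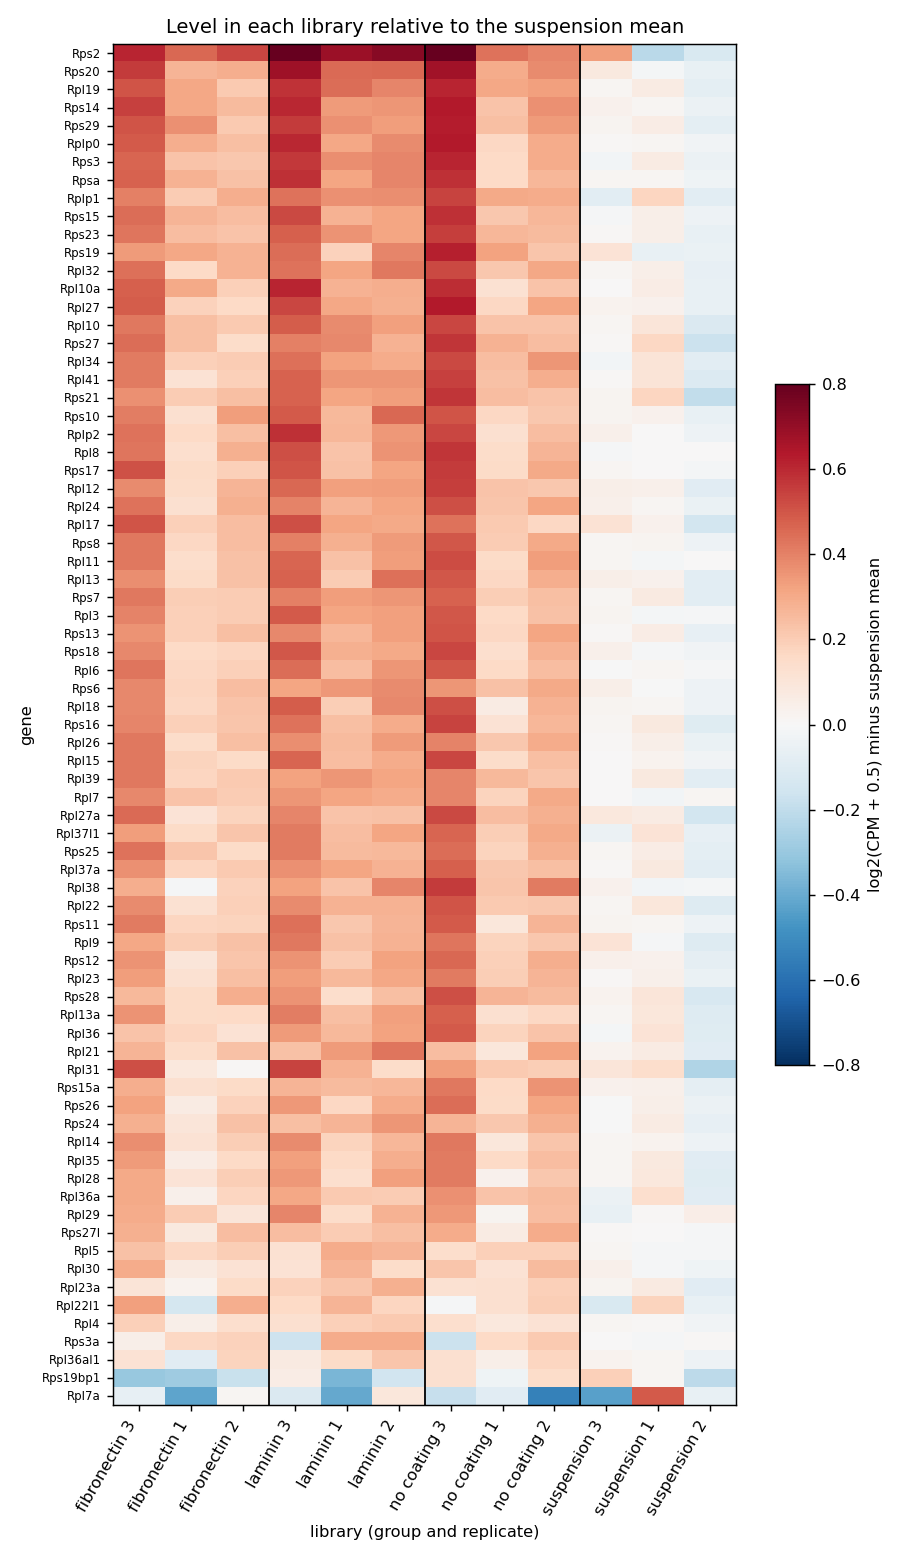
Level of 75 of the 77 tested members in each of the 12 libraries, as log2(CPM + 0.5) minus the gene's suspension mean, with replicate 3 first in each group and genes ordered by their mean over the attached libraries. Red marks higher and blue lower values. Rps2 heads the order, Rps19bp1 and Rpl7a end it, and the median over all 77 tested members is 0.39, 0.42 and 0.50 in the replicate 3 columns of fibronectin, laminin and no coating, against 0.16 to 0.32 in the other attached columns.

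How many members passed the threshold depended on single libraries, on the treatment of batch and on the scaling of libraries. With scaling by library size only, 2, 39 and 18 members rose on fibronectin, laminin and no coating. With the batch as a block, 66 members rose on fibronectin, 71 on laminin and 71 without coating, beside 16.6%, 22.4% and 20.1% of all genes. Members called lower stayed at 0 in that fit, beside 12.1%, 20.8% and 18.7% of all genes. With batch 3 left out of all groups the counts of members that rose were 21, 62 and 42, beside 4.36%, 8.65% and 5.32% of all genes, and 0 members fell, beside 4.94%, 10.3% and 6.72%. On fibronectin the count was 1 without fibronectin 3, 2 without suspension 2, 2 without suspension 3, 10 without fibronectin 1, 11 without suspension 1, 19 without fibronectin 2, 20 without no coating 2 and 57 without no coating 3. On laminin it was 18, 24 and 40 without suspension 2, 3 and 1, 31 without laminin 3 and 36 without laminin 2. Without coating it was 7, 14 and 32 without suspension 2, 3 and 1, 15 without no coating 3 and 31 without no coating 2. For fits that left out 1 library, no share of all genes called is given, here or below. A loss of calls particular to the members or lists therefore cannot be told from a general loss. The medians moved less: with 1 library left out they lay between 0.24 and 0.33 on fibronectin, 0.31 and 0.36 on laminin, and 0.27 and 0.39 without coating. In each of the 19 other settings run, 75 members on fibronectin, 75 on laminin and 76 without coating kept a positive log2 fold change.

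**Figure D4:**
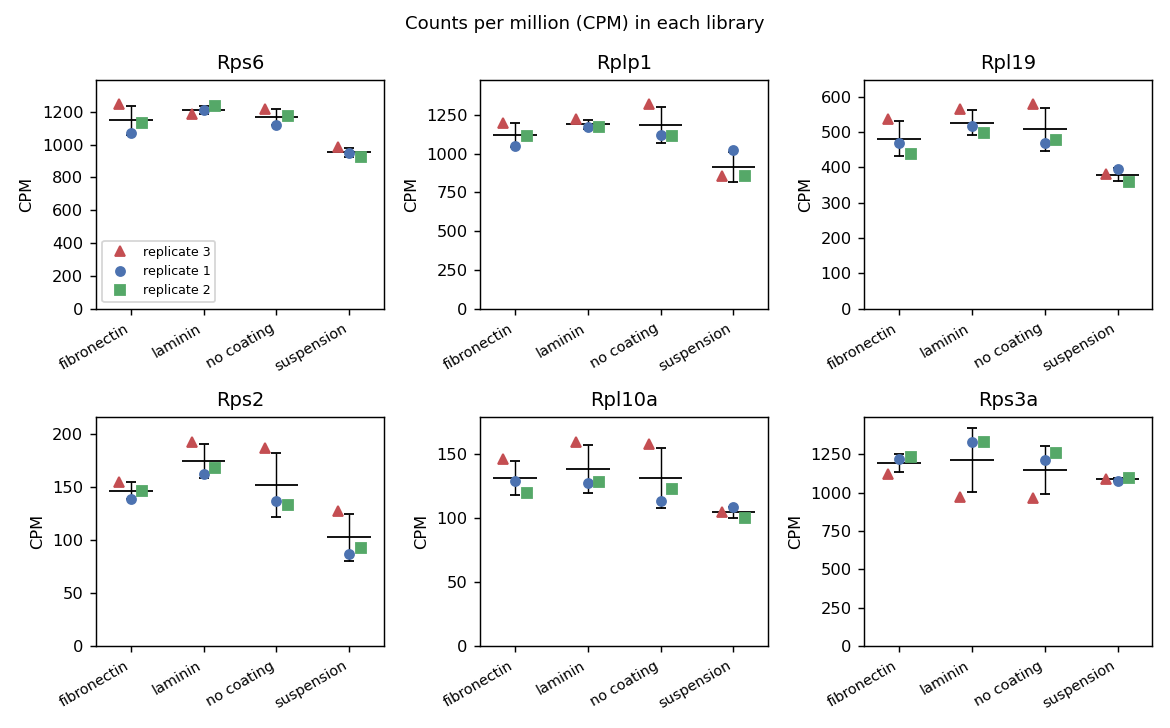
CPM of Rps6, Rplp1, Rpl19, Rps2, Rpl10a and Rps3a in each library, by group, with replicate 3 as a triangle and the mean ± SD of 3 libraries as line and bar. Attached libraries lie above suspension for the first 5 genes, and Rps3a in attached replicate 3 lies below attached replicates 1 and 2.

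Between the surfaces no member was called. Laminin against fibronectin gave 0 called members in either direction by edgeR and 0 at an unadjusted p below 0.05, beside 0.00998% of all genes called higher and 0.14% called lower, with a member median of 0.04. Fibronectin against no coating gave 0 called members, beside 0.17% of all genes called higher and 0.00998% lower, and a median of -0.03. At an unadjusted p below 0.05, 2 members were lower there, Rps19bp1 (-0.34 ± 0.13) and Rpl38 (-0.23 ± 0.09), and neither was called after adjustment. No share of all genes at that unadjusted threshold is given here. Laminin against no coating gave 0 called members, 0 at an unadjusted p below 0.05 and a median of 0.01, with 0% of all genes called either way. DESeq2 also called 0 members in each of these comparisons. The fit with the batch as a block called 0 members too, beside 0.0399% of all genes higher and 0.369% lower for laminin against fibronectin, 0.389% and 0.0798% for fibronectin against no coating, and 0% either way for laminin against no coating. Without batch 3 it was again 0 members, beside 0.00998% and 0.13%, 0.12% and 0%, and 0% either way in the same comparisons. All 3 laminin libraries lay above all 3 fibronectin libraries for 3 members, Rpl23a, Rpl36 and Rps2, a pattern shown by 3.38% of all genes, with log2 differences of 0.10 ± 0.07, 0.11 ± 0.08 and 0.21 ± 0.15. No member had all laminin libraries below all fibronectin libraries, beside 2.66% of all genes. Rps19bp1 had all fibronectin libraries below all libraries without coating, beside 3.34%, and 0 members had them above, beside 2.62%. For laminin against no coating the counts were 0 above and 0 below, beside 1.65% and 1.94%. Within batches, 23 members were higher on laminin than on fibronectin in all 3 and 0 were lower in all 3, beside 16.7% and 19.7% of all genes. For fibronectin against no coating 1 was higher and 20 were lower, beside 16.3% and 15.6%, and for laminin against no coating 9 were higher and 6 lower, beside 18.4% and 16.6%. A missed threshold does not show equal levels.

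Replicate 3, a labelled batch, is shown apart, a choice made with earlier results of these data known. Among the 9 attached libraries, replicate 3 was compared with the mean of replicates 1 and 2 with the group as a term. The replicate 3 libraries on the different surfaces all come from 1 batch. The p-values of this comparison therefore do not measure the spread between batches. In replicate 3, 52 of 77 members were higher, beside 25.3% of all tested genes, and 1 was lower, beside 28.4% (edgeR, adjusted p below 0.05). The member median was 0.15 and the median of all genes 0.03. With no coating 3 left out, 29 members were called in place of 53. The labels give the batch but not what sets it apart (a thaw, a passage or a day), so batch 3 and anything that moved with it cannot be told apart.

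Rpl10a, a large-subunit protein, was among the members with the larger differences. In the attached groups it was at 145.7, 159.6 and 158.0 CPM in fibronectin 3, laminin 3 and no coating 3, against 129.1, 126.9 and 113.6 CPM in the replicate 1 libraries and 119.3, 128.0 and 122.6 CPM in the replicate 2 libraries. Replicate 3 stood above both others in every attached group, and the log2 difference was 0.28 ± 0.05 (edgeR adjusted p 0.00144). In suspension Rpl10a was at 104.6 CPM in replicate 3, against 108.9 and 100.3 CPM in replicates 1 and 2. Rpl31 (0.27 ± 0.07) and Rpl27 (0.27 ± 0.05), both large-subunit proteins, and Rplp0 (0.24 ± 0.04), Rplp2 (0.24 ± 0.04) and Rpsa (0.22 ± 0.04) were also higher.

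Rps3a, a small-subunit protein, went the other way. It was at 1124, 969.9 and 964.9 CPM in fibronectin 3, laminin 3 and no coating 3, against 1217, 1332 and 1214 CPM in the replicate 1 libraries and 1234, 1332 and 1257 CPM in the replicate 2 libraries. In suspension replicate 3 was at 1087 CPM, against 1078 and 1094 CPM in replicates 1 and 2. Thus the replicate 3 libraries on laminin and without coating were below every suspension library, while all attached replicates 1 and 2 were above them. The log2 difference of attached replicate 3 was -0.36 ± 0.06 (edgeR adjusted p 0.000654), and the call held in each of the 9 fits that left out 1 library. Over all batches Rps3a was not called on any surface, with adjusted p of 0.467, 0.428 and 0.649, and without batch 3 it was called higher on laminin (0.31, adjusted p 0.0111) and without coating (0.22, 0.0475). Rpl5 (-0.10 ± 0.04), Rpl23a (-0.08 ± 0.04) and Rpl21 (-0.06 ± 0.06), all from the large subunit, had the next lowest values and were not called.

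**Figure D5:**
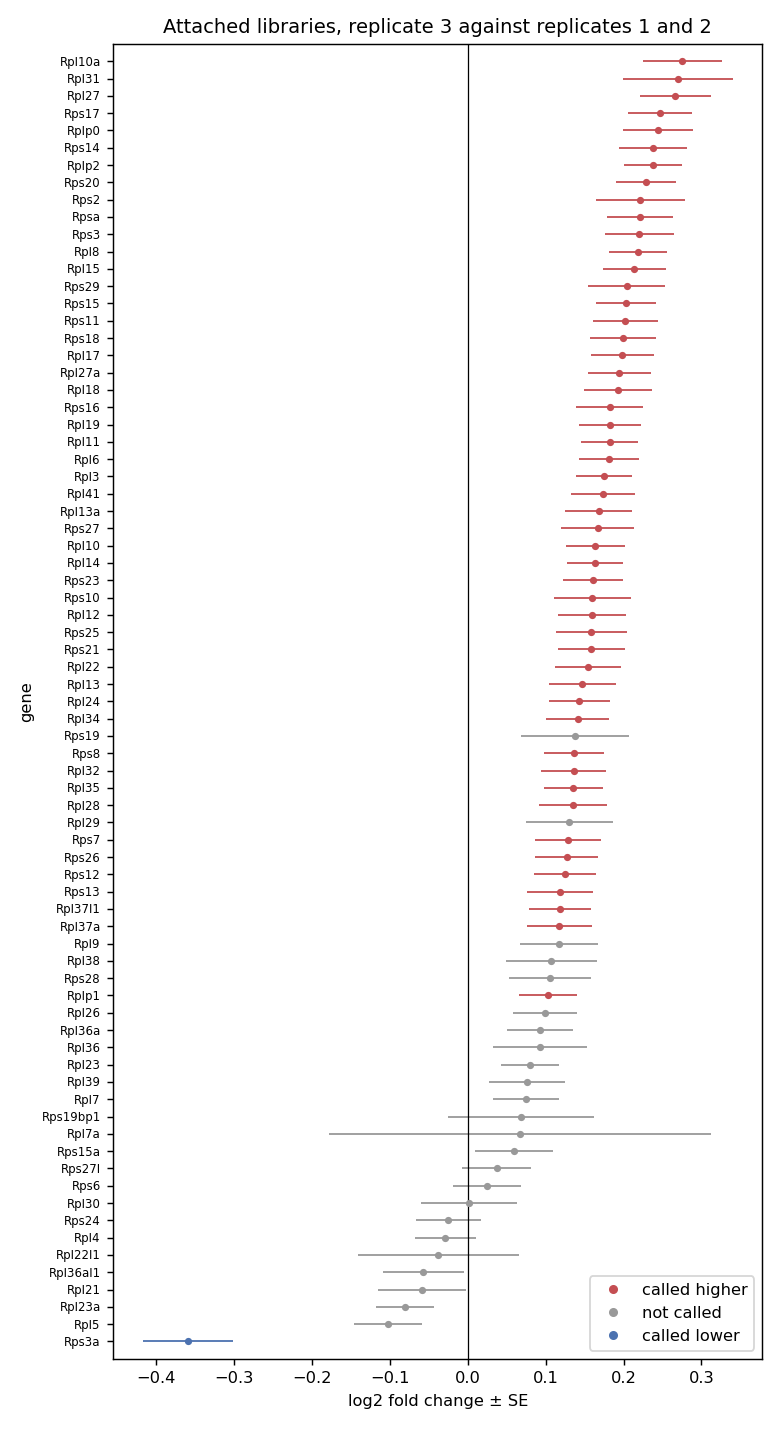
Log2 fold change ± SE of attached replicate 3 against attached replicates 1 and 2 for 75 of the 77 tested members, ordered by size. Members called higher are red and include Rpl10a at 0.28, and Rps3a, at -0.36, is the one member called lower.

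Whether replicate 3 shifted differently in attached and suspended cells was tested as an interaction over all 12 libraries. Only Rps3a passed, with a log2 difference of -0.36 ± 0.11 (edgeR adjusted p 0.0489), beside 15.1% of all genes called lower, and 0 members were called higher, beside 0.878%. At an unadjusted p below 0.05, 14 members were higher and 2 lower, and the share of all genes at that threshold is not given. The member median was 0.13 and the median of all genes 0.03. DESeq2 also called Rps3a (adjusted p 0.0348). The edgeR call for Rps3a was lost without suspension 1 (adjusted p 0.171), suspension 2 (0.0675), laminin 1 (0.0838), laminin 2 (0.0827), laminin 3 (0.121), no coating 1 (0.0718), no coating 2 (0.0949) or no coating 3 (0.105), and it held without each of the fibronectin libraries. Without suspension 3 the term cannot be estimated. Over all alternatives run, 9 lost the Rps3a call, a change of processing among them. The number of members called was 7 without fibronectin 1, 6 without fibronectin 3, 2 without suspension 2, and 0 without suspension 1, laminin 1, laminin 2, laminin 3, no coating 1 or no coating 2. In batches 1, 2 and 3 the member median against suspension was 0.21, 0.28 and 0.40 on fibronectin, 0.27, 0.37 and 0.38 on laminin, and 0.20, 0.33 and 0.46 without coating, so it was above 0 in each batch and on each surface.

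The translation factors and other genes known for TOP transcripts, a list of 20 that were all tested, were described beside the ribosomal proteins. In the start search 13 of the 20 had an entry. The pattern began at the annotated first base in 0 of the 13, against 2.436% of all protein-coding genes in that table. It began at most 10 bases to either side in 10 of the 13, against 28.18%. On fibronectin 6 rose and 0 fell, on laminin 11 rose and 0 fell, and without coating 9 rose and 0 fell, with list medians of 0.22, 0.28 and 0.22. Of all tested genes 6.61%, 12.1% and 8.48% were called higher and 3.06%, 6.96% and 4.1% lower on these surfaces. Eef1a1, the elongation factor that brings aminoacyl-tRNA to the ribosome, was at 3994, 3836 and 4550 CPM in fibronectin libraries 1, 2 and 3, against 3465, 3362 and 3552 CPM in suspension libraries, with a log2 fold change of 0.29 ± 0.07 (edgeR adjusted p 0.0257). The initiation factor genes Eif4b and Eif3h rose on fibronectin by 0.26 ± 0.06 and 0.24 ± 0.06 and on laminin by 0.32 ± 0.06 and 0.31 ± 0.06. Without coating the smallest p belonged to Eef1b2 (0.31 ± 0.08), a nucleotide exchange factor for elongation, to Fau (0.36 ± 0.09), which encodes a small-subunit protein fused to a ubiquitin-like domain, and to Eif4b (0.22 ± 0.06). The counts rested on single libraries. On fibronectin 0 were called without suspension 2, suspension 3 or fibronectin 3, 1 without suspension 1 or fibronectin 1, and 3 without laminin 1, laminin 2 or no coating 2. On laminin 5 were called without suspension 2 or suspension 3, 6 without laminin 3 and 7 without laminin 2. Without coating 0 were called without suspension 2, suspension 3 or no coating 3, 1 without suspension 1 or no coating 2, and 5 without fibronectin 1. With the batch as a block 13, 14 and 13 rose, beside 16.6%, 22.4% and 20.1% of all genes. Gas5, a non-coding snoRNA host, was the one gene of the list called lower in that fit, at -0.28 ± 0.09, -0.40 ± 0.09 and -0.35 ± 0.09, beside 12.1%, 20.8% and 18.7% of all genes. In attached replicate 3, where 25.3% of all genes were called higher and 28.4% lower, 8 genes of the list were higher, among them Eef1g (0.24 ± 0.03), Rack1 (0.24 ± 0.04) and Eef2 (0.21 ± 0.04), and 5 were lower, namely Nap1l1 (-0.69 ± 0.06), Npm1 (-0.76 ± 0.09), Eif3e (-0.85 ± 0.11), Hnrnpa1 (-0.52 ± 0.09) and Gas5 (-0.44 ± 0.06).

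Of the 16 tested genes of mTORC1 signalling to the translation machinery, 2 rose on fibronectin, 4 on laminin and 4 without coating, and 0 fell, beside 6.61%, 12.1% and 8.48% of all genes called higher and 3.06%, 6.96% and 4.1% called lower. The list medians of 0.06, 0.06 and 0.13 were closer to the medians of all genes than those of the ribosomal proteins. The 4 genes called on any surface, Ddit4, Eif4ebp1, Tsc1 and Akt1s1, are known as negative regulators or repressed targets of the pathway. The list holds others of this kind that were not called in this fit, namely Tsc2, Eif4ebp2, Pdcd4, Eef2k and Sesn2. Tsc2 was at 70.7 to 95.0 CPM in attached libraries, against 79.6 to 96.0 CPM in suspension libraries. Whether the called genes share this trait beyond the make-up of the list was not tested. Ddit4, an inhibitor of mTORC1 induced by stress, was at 14.3, 9.78 and 12.4 CPM in laminin libraries 1, 2 and 3, against 8.28, 3.05 and 4.87 CPM in suspension libraries, and rose by 1.18 ± 0.28 on laminin and 1.24 ± 0.28 without coating (edgeR adjusted p 0.0163 and 0.0175). Eif4ebp1, a repressor of cap-dependent translation, rose by 0.29 ± 0.07, 0.27 ± 0.07 and 0.25 ± 0.07 on fibronectin, laminin and no coating, and Tsc1, a negative regulator of the pathway, by 0.39 ± 0.09, 0.37 ± 0.09 and 0.36 ± 0.09. Akt1s1, an inhibitory subunit of mTORC1, rose on laminin (0.46 ± 0.10) and without coating (0.35 ± 0.10). Rps6kb1, the S6 kinase that phosphorylates Rps6, was at 34.1, 25.1 and 23.5 CPM in fibronectin 3, laminin 3 and no coating 3, between 46.7 and 59.9 CPM in the other attached libraries and between 64.9 and 70.1 CPM in suspension. Against suspension it was not called without the block, and with the block it was called lower on laminin (-0.72 ± 0.22, adjusted p 0.0281) and without coating (-0.76 ± 0.22, 0.0248). It was lower in attached replicate 3 (-0.97 ± 0.10, edgeR adjusted p 4.77e-05), as were Pdcd4 (-0.93 ± 0.07) and Eif4e (-0.39 ± 0.08), while 8 genes of the list were higher, among them Rptor (0.27 ± 0.05) and Tsc2 (0.24 ± 0.05). These 3 lower and 8 higher genes stand beside 28.4% of all genes called lower and 25.3% called higher. On fibronectin 0 genes of the list were called without suspension 2, suspension 3 or fibronectin 1, and 1 without fibronectin 2 or fibronectin 3. On laminin 0 were called without suspension 3 and 2 without suspension 2. Without coating 0 were called without suspension 3, 1 without suspension 2 or no coating 2, and 2 without suspension 1, fibronectin 1, laminin 2 or no coating 3. Deptor, Rheb, Eif4g1 and Larp1 are on the list and were not analysed here. These are transcript levels, and the activity of the pathway was not measured.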

How the data were processed

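RNA from 12 cultures, 3 a group, was made into stranded total RNA libraries, per the labels' protocols. The deposited files hold raw read counts per Entrez gene, 1 file a library. The submitters' processing notes name rn4 as the genome build. For the aligner, the counter and its handling of reads that match several copies, the tool is not given in the sources used here. Of 16924 rows, 16761 matched a symbol in the RefSeq gene table for GRCr8, used for names, snoRNA hosts and start sequences only. Unmatched rows held 0.301% to 0.357% of a library.

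Counts were tested in R 4.3.3 with edgeR 4.0.16 (glmQLFit and glmQLFTest) after filterByExpr, which kept 10020 genes, with TMM factors between 0.962 and 1.03, in 1 model of 4 groups with 8 residual degrees of freedom. Benjamini-Hochberg adjustment ran over all tested genes. The replicate 3 comparison had group and batch as terms and the interaction had 5 residual degrees of freedom. DESeq2 1.42.0 was an alternative, and limma 3.58.1 was loaded by edgeR. CPM are counts over the library total. The edgeR fit without block was run on simulated counts with known changes in the fibronectin group, read against suspension. The other fits were not tested in this way.

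The labels give a batch equal to the replicate number, so same-numbered libraries are paired by design. Over 18 same-batch pairs the deviations from the group mean had a median correlation of 0.409 (lowest 0.0360), and over 36 pairs of different batches it was -0.124. Library totals of 15875160 to 20852160 counts limit the precision of members with few counts.

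The members and both gene lists were chosen with earlier results of these data known. Named were, per comparison, the 4 called members of smallest p a direction, the members of highest and lowest level, those with the largest and smallest replicate 3 difference, a list of stalk, paralog and extraribosomal members, and up to 3 called genes a direction of each list. Rps2 and Rpl19 values in other comparisons, Rpl30, Rpl29, Rpl36, Rpl38, Gas5, Hnrnpa1 and Rps6kb1 against suspension were named after their values were seen. Levels per coding length were planned and not run, because coding lengths were not used here, so levels of different genes are not compared. Some genes that the naming rule picks are not reported here; they stay in all counts and medians.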

Additional observations from a re-analysis of the deposited data

Results flagged for a closer look

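Rps3a was flagged because its replicate 3 shift differed between attached and suspended cells: the interaction was -0.36 on the log2 scale (SE 0.11), with an edgeR adjusted p of 0.0489 and a range of 0.000338 to 0.171 over the alternatives. In each attached group replicate 3 was below replicates 1 and 2, and in suspension it lay between them.

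Of the 5 rows left out for their -ps symbols, Rps4x-ps9, Rps27a-ps1 and Rpl17-ps16 were flagged because they carry counts that the member results above did not use and that were higher in attached libraries. Rps4x-ps9 and Rps27a-ps1 were among the tested genes in the shares over all genes, and for Rpl17-ps16 this was not examined. Rps4x-ps9 was at 1053 to 1213 CPM in attached libraries, against 895.4 to 937.7 CPM in suspension libraries, with log2 fold changes of 0.28 ± 0.06, 0.34 ± 0.06 and 0.28 ± 0.06 on fibronectin, laminin and no coating (edgeR adjusted p 0.0167, 0.00422 and 0.0154). Rps27a-ps1 was at 286.6 to 349.0 CPM in attached libraries, against 249.5 to 262.1 CPM in suspension, with 0.32 ± 0.07, 0.37 ± 0.07 and 0.34 ± 0.07 (0.0210, 0.00724 and 0.0129). Rpl17-ps16 was at 21.3 to 33.6 CPM in attached libraries, against 17.9 to 21.1 CPM in suspension, and no test result is given for it. The other non-coding rows left out were Rpl14l1 and Rpl28l1. Rpl14l1 had 377 to 512 unscaled counts in attached libraries, against 320 to 357 in suspension. Rpl28l1 had 41 to 63, against 46 to 65. Neither has a test result here. Whether these rows hold reads of the parent genes was not tested. With 3 libraries a group, single libraries were not screened for outliers.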

How the results depend on the processing

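No called value changed sign in any alternative, and the cause of the moved counts was not tested. Uncalled values did: Rpl7a ran from -0.53 to 0.16 on fibronectin and from -0.49 to 0.15 on laminin, and in attached replicate 3 Rpl7a, Rpl21, Rpl22l1, Rpl30, Rpl36al1, Rpl4, Rps19bp1, Rps24, Rps27l and Rps6 crossed 0. With the batch as a replicate block, 66 members rose on fibronectin; 14 genes of the TOP list were called on fibronectin and 14 without coating, and 5, 7 and 7 of the mTORC1 list on fibronectin, laminin and no coating. With library size only, members called were 2, 39 and 18 on fibronectin, laminin and no coating, TOP genes 0, 6 and 0, and mTORC1 genes 1 on fibronectin and 2 without coating. That scaling also moved the share of higher calls among all called genes to 53.9%, 54.8% and 54.3% from 68.3%, 63.4% and 67.4%, and in attached replicate 3 to 57.7% from 47.1%. DESeq2 called 47 members on fibronectin. With no filter on low counts 19 members were called on fibronectin and 2 in the interaction, with 2 TOP genes on fibronectin and 3 TOP and 2 mTORC1 genes without coating. With only the 2 groups compared, 48 members were called on fibronectin and 1 without coating, with 0 TOP and 0 mTORC1 genes without coating. Without batch 3, TOP genes were 2 on fibronectin and 2 without coating, and mTORC1 genes 1 without coating. In attached replicate 3, members called were 18 without the no coating group, 35 with replicates 3 and 2 only, and 29 with replicates 3 and 1 only.

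With 1 library left out, members called ranged from 1 to 57 on fibronectin, 18 to 70 on laminin, 7 to 64 without coating, 29 to 56 in attached replicate 3 and 0 to 7 in the interaction. TOP genes ranged from 0 to 9, 5 to 12 and 0 to 10, and mTORC1 genes from 0 to 3, 0 to 4 and 0 to 5, on fibronectin, laminin and no coating. Called in every such fit were Rps6 on fibronectin, 17 members on laminin and 7 without coating. TMM factors computed without the members gave 30, 66 and 56. The 3 libraries a group limit how firmly the number of calls can be read; the member medians moved less.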
